A study of Drosophila melanogaster with 3 samples.

Results

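Distal Xbp1-GFP peaks between genes are the ChIP-seq peaks that lay away from every protein-coding start and in no annotated gene. They were taken from the peak list that the authors thresholded by the irreproducible discovery rate (IDR, a measure of how well replicates rank the same peaks), in the dm6 build of the Drosophila melanogaster genome. A peak belonged to the set when its summit, the position of highest signal, was more than 500 bp from every start site of a protein-coding gene and outside the span of every annotated gene of any biotype, transposable elements included. Of 7291 thresholded peaks, 1084 met this rule (14.9%, exact 95% confidence interval 14.1 to 15.7%), which is 28.4% of the 3813 peaks that were not at a promoter. The remaining peaks were 3478 promoter peaks, with a summit within 500 bp of a protein-coding start, and 2729 distal peaks inside genes.

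Xbp1 is a basic leucine zipper (bZIP) transcription factor of the unfolded protein response, which raises the capacity of the endoplasmic reticulum (ER) to fold and export proteins. Its mRNA is spliced by the ER stress sensor Ire1, and in mammals the active factor binds sites with an ACGT core in promoters of chaperone and secretory genes. Sequence between genes holds enhancers, promoters of non-coding RNAs, silencers and boundary elements, and an enhancer need not act on the gene with the nearest start.

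The samples were 3 biological replicates of mixed-sex whole embryos aged 0 to 24 h, all from 1 transgenic line that stably expresses Xbp1 with a GFP at its C terminus. Chromatin sonicated to 200 to 800 bp was precipitated with an anti-GFP antibody. The labels do not say whether the embryos also carried untagged Xbp1. There was no second condition, the whole embryo mixes all tissues and ages of that window, and the control sample and an untagged line were not analysed here, so the part that non-specific signal has in these peaks was not tested. The signal of a peak is the value that the authors' peak caller gave it. Its scale is not stated and differs between lists, so it is compared within a list. Replicates 1, 2 and 3 had 21686, 30000 and 23357 entries, and the round total of replicate 2 may be a cap. Replicate 2 also stood apart in its own list: of its 7291 strongest peaks 934 met the rule, against 1149 in replicate 1 and 1168 in replicate 3 (mean 1084 ± 130, SD, n = 3). Depth is unknown, as no read totals were analysed, and the intervals cover counting error over peaks only.

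The sequences that the results turn on are given first, each as 101 bp centred on the summit, plus strand of the Release 6 genome (the sequence of dm6), with capitals marking an ACGT core or the longer element of the unfolded protein response that holds it. Each is named by the gene with the nearest protein-coding start and the offset from it in bp, negative upstream. The first 3 lines are peaks ranked 2, 3 and 5 by signal, of which the one at tara held an ACGT core and the others none. The peak 3737 bp past the start of CG31668 is shown as an A and T rich summit, with a GC content of 26.7%.
tara -3161: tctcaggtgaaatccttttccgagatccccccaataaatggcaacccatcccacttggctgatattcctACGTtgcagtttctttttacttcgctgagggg
sp3 -549: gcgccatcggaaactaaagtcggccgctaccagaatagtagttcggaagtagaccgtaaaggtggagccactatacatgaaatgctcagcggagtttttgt
eEF1gamma -5719: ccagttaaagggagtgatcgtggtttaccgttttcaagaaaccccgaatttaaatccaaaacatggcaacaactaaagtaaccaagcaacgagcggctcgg
CG31668 3737: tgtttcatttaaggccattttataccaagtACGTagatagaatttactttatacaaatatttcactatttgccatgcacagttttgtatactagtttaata
The next lines are the 4 peaks that held the unfolded protein response element TGACGTGG, or CCACGTCA on the other strand, within 50 bp of the summit.
Pdk1 -1019: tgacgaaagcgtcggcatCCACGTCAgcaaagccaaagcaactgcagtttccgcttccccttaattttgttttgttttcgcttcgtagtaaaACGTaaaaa
pan -644: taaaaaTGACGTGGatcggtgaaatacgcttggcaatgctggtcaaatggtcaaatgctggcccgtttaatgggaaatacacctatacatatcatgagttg
Or67c 2136: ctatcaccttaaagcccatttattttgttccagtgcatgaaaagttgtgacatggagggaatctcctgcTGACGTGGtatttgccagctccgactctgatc
Cyp12e1 -896: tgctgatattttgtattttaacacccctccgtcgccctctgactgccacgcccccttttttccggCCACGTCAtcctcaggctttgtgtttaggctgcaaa

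The strongest of the 1084 peaks covered 2R:13035136-13035558 in the stretch between Su(z)2 and CG13323. Its summit lay 27437 bp from Su(z)2, a homologue of the Polycomb repressive complex 1 subunit Psc, and 9347 bp from CG13323, and the nearest annotated gene of any kind was a transposable element 5763 bp away. Its pooled signal of 4860 ranked 12 among all 7291 thresholded peaks, and it was 2267, 1450 and 1177 in replicates 1, 2 and 3. Another peak lay 4197 bp upstream of Psc itself (2R:12984994-12985420, pooled signal 2309), with its summit 176 bp from the 5' end of lncRNA:CR44339. A further one lay between CG13321, 2486 bp away, and Psc, 7799 bp away (2R:12958018-12958420, 1627). All 3 were among the 15 strongest, and each replicate's list of the same length overlapped them.

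The second strongest peak, at 3R:16222029-16222686, lay 3161 bp upstream of tara, a cofactor related to the Trithorax group, in the stretch between mtSSB and tara. Its summit was closer to lncRNA:CR45643, 905 bp from the 5' end. Its signal was 3184 in the pooled list and 1384, 888 and 921 in the replicates. The peak 549 bp upstream of sp3 (3R:21520203-21520545) had 3076, with 1451, 1002 and 642 in the replicates. The peak beyond the 3' end of CycB, a mitotic cyclin, had 2693 and lay 558 bp from that gene. The peak 5719 bp upstream of eEF1gamma, a subunit of translation elongation factor 1, had 2670 and its summit lay 109 bp from the 5' end of lncRNA:CR31044. In all of these the highest replicate value was that of replicate 1, whose list has the larger values in general.

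The other peaks among the 15 strongest had signals from 1589 to 2368. Upstream of chinmo, a BTB zinc finger factor of neuronal timing, a peak 12392 bp from the start had a signal of 2089. In front of foxo, the forkhead factor of insulin signalling, a peak 3323 bp away had 1636, with 745, 511 and 372 in the replicates, and a weaker one 4622 bp away had 618. Between CG14762, 650 bp away, and Optix, a homeodomain gene of eye development 16878 bp away, a peak had 1609. On chromosome 4 a peak in the stretch between dati and lgs, the fly BCL9 of Wingless signalling, had 1788. It lay 12138 bp from lgs, 29214 bp from dati and 1248 bp from lncRNA:CR43437. The peak closest to the start of DNAlig3, a DNA ligase, had 1669 and lay in the 437 bp between Sol1 and the cytochrome P450 gene Cyp9f2. The rest of the 15 lay nearest to CG31668 (2368), CG10651 (1720) and CG3149 (1589), whose roles are not described here.

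**Figure D1:**
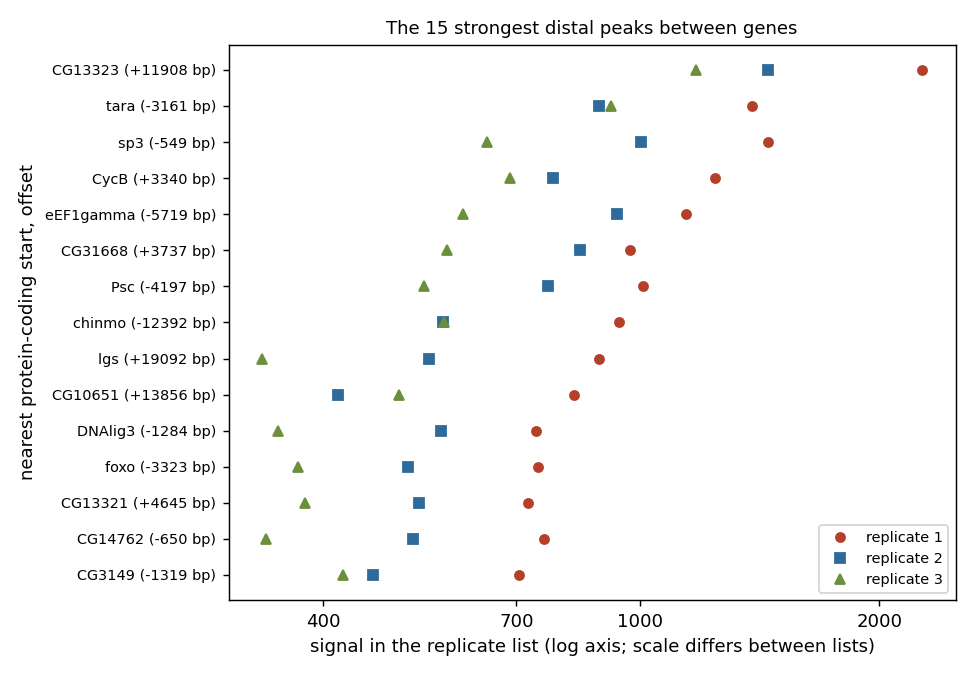
Signal of the 15 strongest distal peaks between genes in the list of each replicate (log axis), each labelled by the nearest protein-coding start and the offset in bp. The peak between Su(z)2 and CG13323 (labelled CG13323) is the highest in all 3 replicates, and every peak has its highest value in replicate 1, where values are larger in general.

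The unfolded protein response element was rare at these summits. It was searched on both strands as TGACGTGG, which XBP1 and ATF6 bind in mammals, within 50 bp of the summit, and it contains both ACGT and CCACG (on the other strand), which were counted separately as well. The element was found in 4 of 1084 peaks (0.369%, exact interval 0.101 to 0.942%), where 0.549% of all thresholded peaks held it. Windows of the same length centred 500 bp to the left and right held it in 2 and 0 cases. Tiled over all sequence that meets the rule it was in 0.126% of 319408 windows, and promoter peaks held it in 0.690% (24 peaks). In the lists of replicates 1, 2 and 3, cut to the same length, the share was 0.0870, 0.642 and 0.514% (mean 0.414 ± 0.291, SD, n = 3). The count rests on few peaks: limited to peaks overlapped by both remaining replicates, the share was 0.265% without replicate 1, 0.108% without replicate 2 and 0.125% without replicate 3.

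The 4 peaks with the element lay near a kinase gene, a Wingless pathway gene, a receptor gene and a metabolic gene. The peak 1019 bp upstream of Pdk1, the kinase that activates Akt, was at 3L:128335-128480 with a pooled signal of 447, and 97.9, 285 and 61.9 in the replicates. Its summit lay 765 bp from the 5' end of lncRNA:CR45400. The peak 644 bp upstream of pan, the TCF factor of Wingless signalling on chromosome 4, had 282, and 57.7, 162 and 57.6. The peak 896 bp upstream of Cyp12e1, a cytochrome P450 gene, had 197, and 64.8, 105 and 30.7. The peak 2136 bp past the start of Or67c, an odorant receptor gene, had 200, with 71.6 in replicate 1, 53.9 in replicate 3 and no overlapping entry in replicate 2. The summit of this peak lay 229 bp from the 3' end of lncRNA:CR44541.

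The 3 peaks with values in every list had their highest value in replicate 2, and there the order of the replicates differed from that of most peaks. Their ratio of replicate 2 over replicate 1 had a median of 2.81 and a range of 1.63 to 2.91. Over the 1013 peaks with an entry in every list the median ratio was 0.710, and 95 of them (9.38%) were above 1. For peaks with any ACGT core the median was 0.726, with 22 of 147 (14.97%) above 1, and 769 of 3336 promoter peaks (23.1%) were above 1. These are descriptions of 3 peaks, and the Pdk1 peak alone of the 4 was overlapped by the equally long lists of all 3 replicates.

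The shorter ACGT core, shared by many bZIP sites, was no more frequent at the summits than in the flanks. It lay within 50 bp of 156 summits (14.4%, exact interval 12.4 to 16.6%), where 17.8% of all thresholded peaks held it. The flanks 500 bp to the left and right held it in 17.2 and 15.8% of cases, windows over all sequence that meets the rule in 16.9%, and promoter peaks in 20.6%. The replicate lists gave 15.2% ± 1.46 (SD, n = 3). Peaks with and without the core had median signals of 285 and 282. CCACG, part of the ER stress response element, was in 4.24% of summit windows against 9.87 and 10.2% of the flanks, where 6.27% of all thresholded peaks held it. The cyclic AMP response element TGACGTCA of CREB and ATF factors was in none of the 1084, which allows a share of up to 0.277% by 3 counts of the total (the two-sided exact interval reaches 0.340%), and in 3 windows of each flank. Over all thresholded peaks its share was 0.178%.

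Base composition differed strongly between summits and flanks, so motif counts are to be read beside it. The median GC content of the 101 bp at the summit was 32.7% (quartiles 27.7 and 37.6%), against 43.6% in the flanks, 41.6% in windows over all sequence that meets the rule, 36.6% at promoter summits and 31.7% at distal summits inside genes. The hexamer AAATAT or its reverse complement was in 35.3% of summit windows and in 16.7 and 17.7% of left and right flanks, the largest gain of all hexamers. Next came AATATA with 25.3% against 9.78 and 9.69%. AGCAGC was in 3.69% of summit windows against 8.39 and 8.95%. The homeodomain site TAATTA, itself of A and T only, was in 9.50% of summit windows against 6.92 and 6.83%. It was in 9.24% of all thresholded peaks, so the share was not particular to this set. The E-box CACGTG was at 4 summits (0.369%, against 0.905% of all thresholded peaks) and in 12 and 14 flanks. The GAGA site GAGAGAG was at 6 summits (0.554%, against 1.01%) and in 26 and 24 flanks. The DNA replication-related element TATCGATA, bound by DREF and BEAF-32, was at 5 summits (0.461%), at 2.70% of all thresholded peaks and at 5.43% of promoter summits. The AP-1 site TGANTCA was in 2.58% of summit windows, against 1.85 and 1.94% of flanks and 2.56% of all thresholded peaks. For the Zelda site CAGGTAG these shares were 0.461%, 0.369 and 0.554%, and 0.439%. For the heat shock element GAANNTTC they were 3.04%, 2.58 and 2.31%, and 3.02%. TGATGCAA of ATF4 and C/EBP was in 0.554%, from 6 summits, against 0.277 and 0.369% of flanks and 0.288% of all thresholded peaks.

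**Figure D2:**
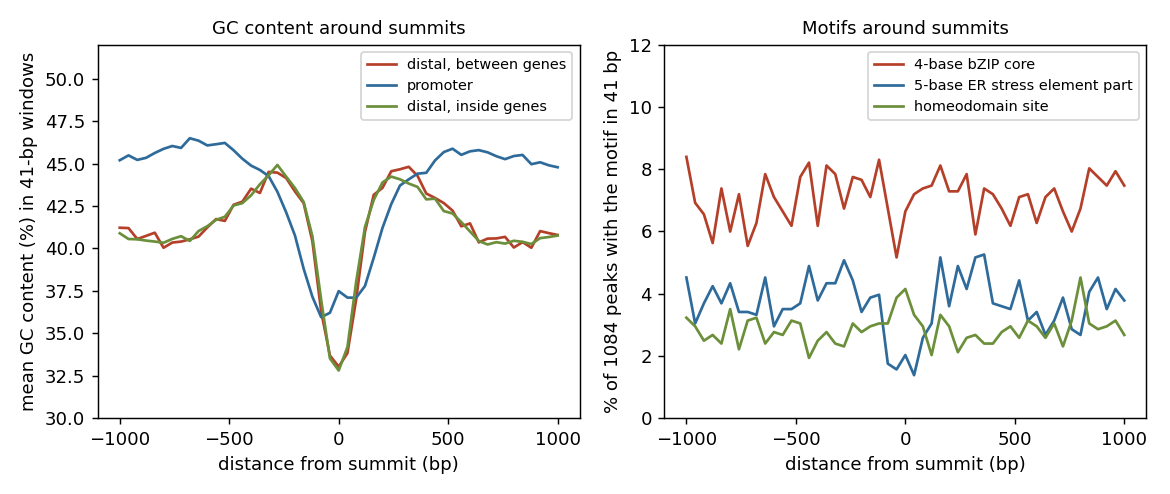
Left, mean GC content in 41-bp windows against distance from the summit for the 3 classes of peak. It falls to 33.0% at the summits of distal peaks between genes and is 41.2% at 1000 bp upstream of them on the plus strand. Right, share of the 1084 peaks with ACGT, CCACG or TAATTA in each 41-bp window. CCACG falls at the summit, TAATTA is at 4.15% there, and ACGT is at 6.64%.

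Peaks between genes were weaker than promoter peaks in each replicate and nearly as strong as distal peaks inside genes. The pooled signal had a median of 282 (quartiles 215 and 441, range 172 to 4860), against 354 for promoter peaks and 297 for peaks inside genes. The ratio of the medians to promoter peaks was 0.789, 0.725 and 0.784 in replicates 1, 2 and 3 (mean 0.766 ± 0.0359, SD, n = 3), a log2 ratio of -0.39 ± 0.07. The ratio to peaks inside genes was 0.962, 0.945 and 0.958 (mean 0.955 ± 0.0088, SD, n = 3). All 3 replicates lay below 1 in both comparisons, and the two-sided exact sign-flip permutation test over replicates gave p = 0.25 for each, the smallest that 3 replicates allow. The classes overlapped widely, and the quartiles of promoter peaks were 241 and 627 in the pooled list. The set made up 8.50% of the 729 strongest thresholded peaks and 18.7% of the 729 weakest.

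**Figure D3:**
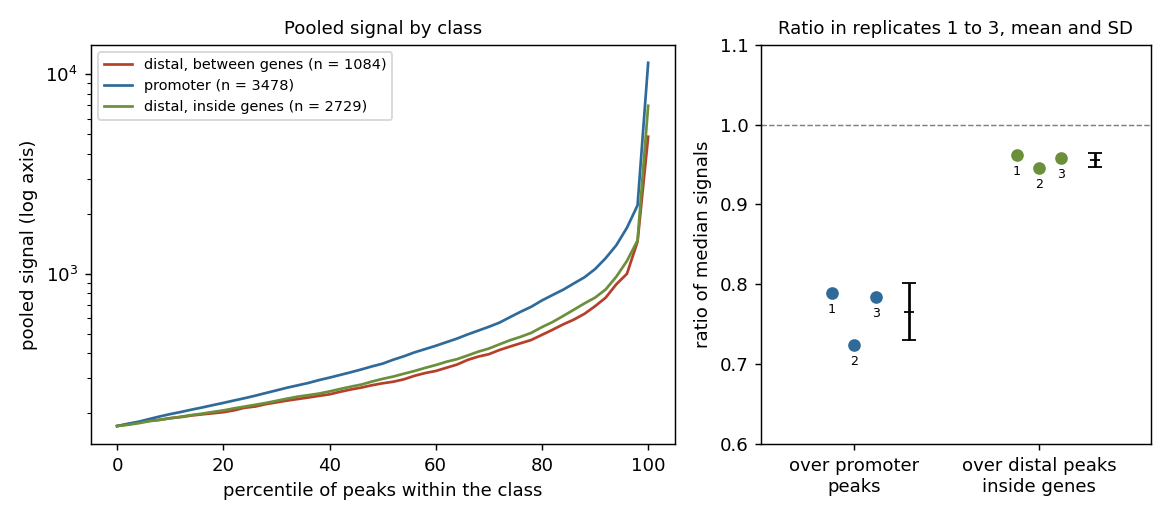
Left, pooled signal (log axis) at each percentile of the peaks of a class. Right, ratio of the median signal of distal peaks between genes to that of the other classes in replicates 1 to 3 (points, numbered) with mean and SD. Ratios to promoter peaks lie between 0.725 and 0.789 and ratios to distal peaks inside genes between 0.945 and 0.962.

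The replicates recovered most of these peaks, and the stronger ones nearly always. The equally long lists of all 3 replicates overlapped 743 of 1084 (68.5%, exact interval 65.7 to 71.3%), where the share over all thresholded peaks was 73.3%, over promoter peaks 76.7% and over distal peaks inside genes 70.8%. By replicate, 95.2, 76.6 and 88.4% were overlapped, and 5 peaks were overlapped by none. Among the 542 stronger peaks 96.5% were overlapped by all 3, and among the 542 weaker 40.6%. The thresholded list and the equally long lists are all cut by signal, so this contrast follows in part from the cut. Summits moved by a median of 11, 12 and 15 bp. Across the 1013 peaks found in every full list, the signals of replicates 1 and 2 had a Spearman's rho of 0.815, those of 1 and 3 of 0.863, and those of 2 and 3 of 0.769. Peaks share libraries and the thresholded list was called on the same replicates pooled, so these values are descriptions. Of the 1084 peaks 697 were exactly 404 bp wide with the summit at the centre, so their edges hold no information on the width of binding.

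Peaks per Mb fell with distance from gene starts, also beyond 500 bp. The distance from the summit to the nearest protein-coding start had a median of 4060 bp (quartiles 1603 and 9472 bp, range 501 to 63997 bp), while windows over all sequence that meets the rule had a median of 8191 bp. There were 87.6 peaks per Mb of such sequence at 500 to 1000 bp, 60.4 at 1000 to 2000 bp, 41.6 at 2000 to 5000 bp, 32.3 at 5000 to 10000 bp, 31.8 at 10000 to 20000 bp and 8.92 beyond 20000 bp. Sequence beyond 20000 bp was masked as repeats at 37.0% of positions sampled, against 17.3 to 20.1% in the other classes, and how far mapping of reads bears on the low density there was not tested. Median signal in these classes, from the closest to the farthest, was 287, 308, 293, 264, 285 and 240, with no steady order. In all, 32.7 peaks per Mb lay in the 33.1 Mb that meet the rule (24.8% of the genome), against 32.0 per Mb inside genes away from starts and 227 per Mb at promoters.

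**Figure D4:**
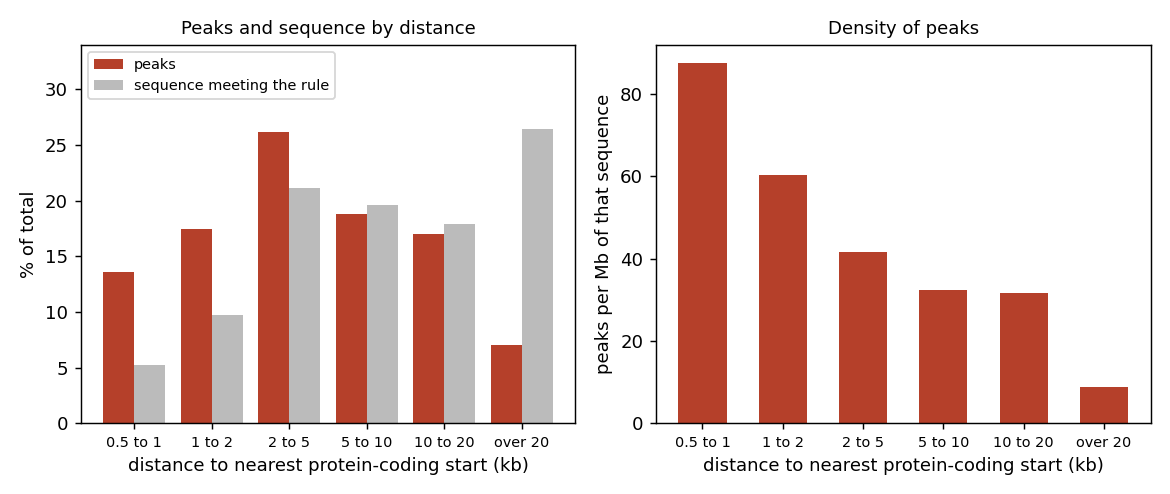
Left, share of the 1084 peaks and of the sequence that meets the rule by distance to the nearest protein-coding start. Right, peaks per Mb of that sequence. The density falls from 87.6 per Mb at 0.5 to 1 kb to 8.92 per Mb beyond 20 kb.

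The nearest annotated gene was protein-coding for 644 peaks (59.4%, exact interval 56.4 to 62.4%), a long non-coding RNA for 301 (27.8%) and a transposable element for 95 (8.76%). Over windows of all sequence that meets the rule these shares were 48.0, 18.7 and 29.5%. A tRNA gene was nearest to 21 peaks, an antisense RNA to 11, another non-coding RNA to 4, a microRNA and an snRNA to 3 each, and a snoRNA and a pseudogene to 1 each. The start of a gene other than protein-coding lay within 500 bp of 89 summits (8.21%, against 4.52% of windows). Leaving out transposable elements it was 71 (6.55%, against 1.93% of windows), of which 57 were starts of long non-coding RNAs.

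Some of the strongest peaks near non-coding genes lay close to their starts. The peak 74 bp from the 5' end of Uhg4, a host gene of small nucleolar RNAs, had a pooled signal of 1496, with 608, 555 and 344 in the replicates. It also lay 541 bp upstream of the start of the protein-coding gene Boot. The peak 117 bp from snRNA:U6:96Ac, a gene of the spliceosomal U6 RNA, had 757, with 369, 247 and 132. A peak 440 bp from the 5' end of asRNA:CR45281 had 901, and a peak 31 bp from snoRNA:185 had 278. The strongest peak with a tRNA gene as its nearest, tRNA:Phe-GAA-1-7, had 687 but lay 2357 bp away, and the one nearest to mir-957 had 183 at 2213 bp. A peak of 676 lay 76 bp from the 3' end of the pseudogene CR31958 and 681 bp from its start.

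The peaks took no side of the nearest gene, with the 5' end as the closest edge for 542 and the 3' end for 542 (50%, exact interval 47.0 to 53.02%, against 48.7% 5' ends over windows). By the protein-coding genes on either side, 337 peaks (31.1%) lay between divergent genes, 550 (50.7%) between genes in tandem and 197 (18.2%) between convergent genes, against 24.2, 49.2 and 21.6% of windows. In 703 cases (64.9%) the summit lay upstream of the gene with the nearest protein-coding start. The same share over windows was not computed, so this count is not read as a preference for the upstream side. The median distance to that start was 2907 bp between divergent genes and 5903 bp between convergent genes, so orientation and distance go together.

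Genes of the secretory pathway, which had peaks at their promoters, included a single gene nearest to one of these distal peaks. A gene was counted when its start was the nearest protein-coding start of at least 1 of the 1084 peaks, and 729 of 13945 genes (5.23%) were. The 4 lists joined here were chaperones and folding enzymes of the ER, ER stress signalling, translocon with ERAD and N-glycosylation, and vesicle transport. In these, 1 of 82 genes was counted (1.22%), while 64 (78.0%, against 30.4% over all protein-coding genes) had a promoter peak. The exception was gammaCOP, a coatomer subunit of retrograde transport, with a peak 5101 bp upstream of a signal of 232, and 97.0, 70.1 and 62.3 in the replicates, whose summit lay 877 bp from the 3' end of nyo. These 82 genes have the nearest start of 0.153 Mb of sequence that meets the rule, 0.131 Mb of it in the chaperone list. That is 1.87 kb per gene against 2.31 kb over all genes, and 6.53 peaks per Mb against 33.6. The low joined density is set by the chaperone list, which had 0 peaks. The ER stress signalling, translocon and vesicle transport lists have 0.00677, 0.00687 and 0.00929 Mb. That is too little sequence for their 0, 0 and 1 peaks to be read as a density. Ribosomal protein genes gave 3 of 92 (3.26%), with 82.6% at promoters.

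Regulators of embryonic development included genes with several of these peaks, and some of their lists, though not all, had few promoter peaks. Of 22 gap, pair-rule and segment polarity genes 10 were counted (45.5%), with 17 peaks. Of the 22, 2 had a promoter peak (9.09%, against 30.4% over all protein-coding genes). The pair-rule forkhead gene slp2 had 2 peaks, the stronger 4317 bp upstream with a pooled signal of 1572, and 663, 499 and 417 in the replicates. The Hedgehog receptor gene ptc had a peak 5263 bp upstream of 702, and 289, 248 and 181. The pair-rule repressor gene hry (hairy) had 4 peaks, of at most 283, and odd, a zinc finger gene, 3 of at most 315. The Wnt ligand gene wg had 2 of at most 459. Single peaks lay nearest to bcd, ftz, hh, opa and slp1, with signals from 190 to 281.

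Of 12 Hox genes and homeotic regulators 3 were counted (25%). They were the Hox gene Dfd, with a peak of 441 in the stretch up to Scr, the trunk gene tsh (462) and the Hox cofactor gene hth, with 3 peaks of at most 403. Of 19 dorsoventral and signalling genes 3 were counted (15.8%), namely the BMP ligand gene dpp with a peak 1751 bp upstream of 463, the Notch modifier gene fng (394) and the Ets factor gene pnt (290). Of 16 zinc finger and other early factors 5 were counted (31.25%), namely chinmo with 7 peaks, lola (464), ttk (257), the GATA factor gene srp (241) and zld, the activator of the zygotic genome (206). A promoter peak was at 16.7% of the Hox list and 21.1% of the dorsoventral and signalling list. In the zinc finger and early factor list it was 31.25%, near the 30.4% over all protein-coding genes.

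Joined, the 4 developmental lists gave 21 of 69 genes (30.4%), with a promoter peak at 13 (18.8%), against 5.23 and 30.4% over all genes. Their starts are the nearest of 0.607 Mb of sequence that meets the rule, or 8.79 kb per gene against 2.31 kb over all genes, so more peaks per gene go with more sequence per gene. Per Mb they had 61.0 peaks, and all genes 33.6. Each of the 4 lists was above 33.6. The dorsoventral and signalling list was the lowest of them. The zinc finger and early factor list was the highest, with most of its peaks at chinmo. A density above that of all genes was not particular to these lists. The tracheal list had 80.8 peaks per Mb, and the neuronal list 172, from 5 peaks in 0.0290 Mb. The glycolytic, stress response factor, fat body, cytosolic heat shock and vesicle transport lists were also above 61.0, each from 1 or 2 peaks. The bZIP factor, muscle and salivary gland lists lay between 33.6 and 61.0. Among lists with any peak, only the ribosomal protein, chemoreceptor and cuticle lists were below the 33.6 of all genes. In the tracheal list 3 of 11 were counted (27.3%), the POU factor gene vvl with 5 peaks of at most 546, trh (184) and verm (194). No list was tested, since members of a list share stretches of sequence and the lists were chosen with results known.

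In the remaining lists the counts were small, and their shares are to be read beside the 5.23% over all genes. The share was 18.8% in the neuronal list and 16.7% in each of the bZIP factor, salivary gland and glycolytic lists. It was 13.3% in the muscle list, 11.8% in the fat body and hemocyte list, and 6.67% in the cytosolic heat shock and stress response factor lists. Of 18 bZIP factor genes 3 were counted: Atf3, a stress-inducible factor, had a peak 1905 bp upstream of 910, with 380, 316 and 217 in the replicates, the Fos gene kay had 356, and CrebA, a regulator of secretory genes in the salivary gland, had 281. CrebA was also in the salivary gland list, where the Pax gene eyg (598) was the other of 2 in 12. Both glycolytic genes counted, of 12, were Hex-A, a hexokinase (940), and Ldh, lactate dehydrogenase (601), each with a peak under 2000 bp upstream. Closer to these summits were the 5' ends of lncRNA:CR45541 (257 bp, Hex-A peak) and lncRNA:CR44522 (1254 bp, Ldh peak). Neuronal genes gave 3 of 16, among them nerfin-1 with 2 peaks of at most 226. Muscle genes gave 2 of 15 (how with 389 and Act57B with 238), and fat body and hemocyte genes 2 of 17 (Hml with 307 and srp). DnaJ-1, with 225, was the single one of 15 cytosolic heat shock genes, and foxo that of 15 stress response factors. Of 179 chemoreceptor genes 10 were counted (5.59%), led by Gr89a with 1024 and Gr93a with 536, and of 115 cuticle protein genes 5 (4.35%), led by Cpr76Ba with 887 and Cpr65Eb with 374.

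**Figure D5:**
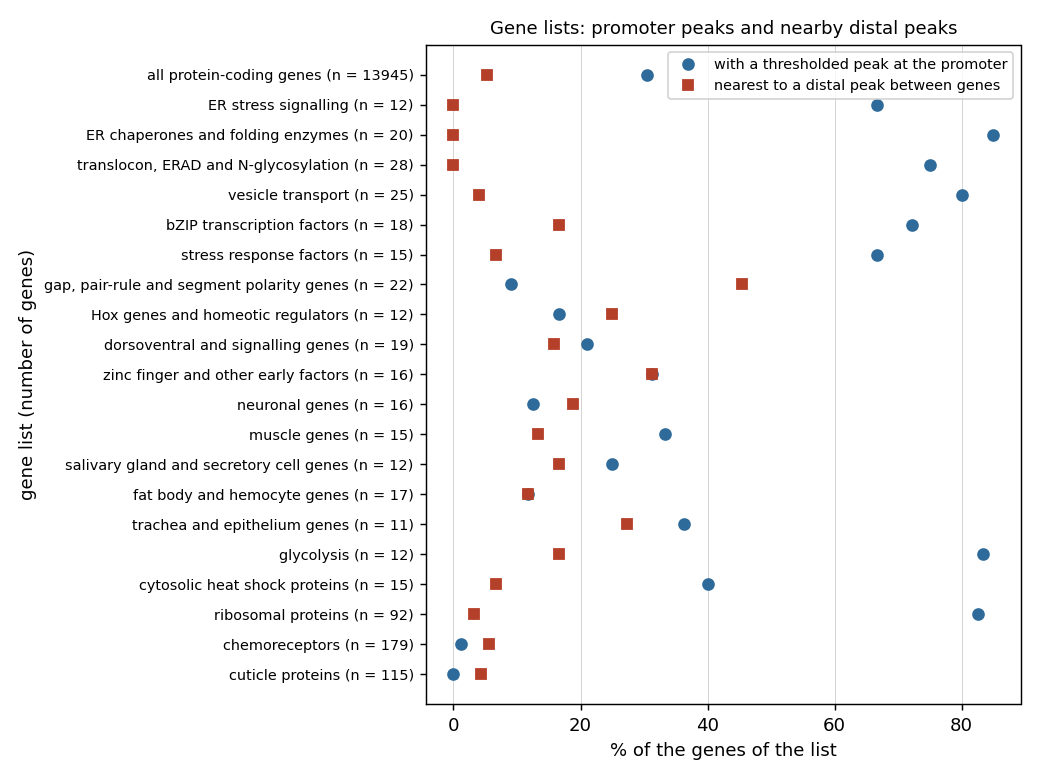
Share of the genes of each list with a promoter peak (circles) and with a distal peak between genes for which they have the nearest protein-coding start (squares), with all 13945 protein-coding genes on top. The 3 lists of ER stress signalling, chaperones and translocon are at 0 for distal peaks and at 66.7 to 85% for promoter peaks. The ER stress signalling and translocon lists have only 0.00677 and 0.00687 Mb of sequence that meets the rule. The gap, pair-rule and segment polarity list is at 45.5 and 9.09%, and all genes are at 5.23 and 30.4%.

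The peaks were gathered in some stretches between genes. The 1084 lay in 652 stretches between neighbouring protein-coding genes, of which 440 held a single peak and 96 held 3 or more. The stretch of 47937 bp between hng3 and CG13898 on 3L held 15 peaks, the most of all, with summits from 756570 to 802898 and a signal of at most 1130. The next held 12 between CG44362 and CG7560, and 10 each between RFeSP and chinmo and between NijA and CG43245. The stretch between mtSSB and tara held 8 in 20400 bp, with the second strongest peak of the set among them. By nearest start, 531 genes had 1 peak, 124 had 2 and 74 had 3 or more, up to 12 at CG43245. The nearest other thresholded peak of any class lay within 1000 bp of 217 summits (20.02%).

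By chromosome, the density was lowest on 2R, with 23.7 peaks per Mb of sequence that meets the rule, and X, with 27.6, and higher on 3R (33.6), 3L (36.8) and 2L (38.8). The small chromosome 4 had 89.7 per Mb, from 10 peaks in 0.111 Mb. Besides lgs and pan, these lay nearest to fuss (766), Asator (589), zfh2 (395), the Pax6 gene ey (277), dati (3 peaks of at most 429) and RpS3A, a ribosomal protein gene (228). In 6 of the 10 the nearest gene was a transposable element. The share over windows of chromosome 4 alone was not computed, so this count has no background beside it. The ratio of replicate 2 over replicate 1 had a median of 0.963 for the 9 with an entry in every list.

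At the low end were peaks next to CG9926 (172.2), dmrt99B (172.7) and CG41378 (172.8), the last with 81.7 in replicate 1, 60.9 in replicate 3 and no entry in replicate 2. The 3 peaks farthest from any protein-coding start lay in a stretch of 70856 bp between Cyp12e1 and hth, at 63997 and 59516 bp (178 and 457), and between vvl and Prat2, at 60268 bp (420). At the 500 bp limit of the rule, the peak at 500 bp from tej, with 193, counted as a promoter peak and the peak at 501 bp from CG5973, with 200, belonged to the set. Beside them, peaks at 499 bp from Decay and CG3348 had 176 and 362, and peaks at 502 bp from CG43066 and 508 bp from Npc2b had 529 and 723. Another 58 of the 1084 were within 100 bp of a gene span, the other limit of the rule.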

How the data were processed

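ChIP-seq peaks of 3 replicates of 1 group were analysed in dm6. The dm3 lists were not used. The authors' deposited lists give a signal value per peak, on an unstated scale, and its q-value as −log10. Per the file lists that accompany the samples, calling was done against a control, on each replicate and on pooled replicates (27099 entries), and the thresholded list came from these. Neither aligner nor peak caller is given in the sources used here. The 7291 thresholded peaks are identical to the 7291 of highest signal in the pooled list, so membership of that list itself rests on signal.

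Summits were placed on the Ensembl BDGP6.54 annotation (release 115) by transcript starts and gene spans, and sequence was read from the Release 6 RefSeq genome after checking that peaks and genes end within their chromosomes. All sequence that meets the rule was tiled in windows of 101 bp as a description. Replicate lists were limited to their 7291 strongest peaks, overlap was 1 bp or more, and a peak took the strongest overlapping entry as its value in a replicate. Intervals are Clopper-Pearson 95% intervals and cover counting error. The log2 ratios of medians were tested by an exact sign-flip permutation over replicates. No test was made over peaks, genes or motifs. Of the names in 20 gene lists, 281 matched a symbol, 5 a synonym and 7 nothing. Ribosomal protein, chemoreceptor and cuticle genes were taken by symbol pattern. The lists were joined into groups of 4 after seeing the data.

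The set, the gene lists and the 12 motifs were chosen with earlier results of these data known. Peaks were named by rule: the 15 strongest, the 3 weakest, the 3 farthest from a start, the strongest for each kind of non-coding nearest gene, up to 2 per gene list, the stretch with most peaks and those at the limit. Peaks with the unfolded protein response element, peaks on chromosome 4, other members of the gene lists and other stretches were added after their values were seen. Of the procedures, the rule for the classes of peak, the call of the nearest gene edge and the motif search were tested on simulated data. Tools were pandas 2.3.3, Matplotlib 3.10.9, SciPy 1.17.1 and NumPy 2.4.6 in Python 3.11.15.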

Additional observations from a re-analysis of the deposited data

Results flagged for a closer look

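Entries of the authors' pooled list below the threshold, which none of the comparisons above use, also lay between genes. Of 4149 such entries with a q-value of 0.05 or less and no overlap with a thresholded peak, 901 met the same rule (21.7%, exact interval 20.5 to 23.002%), with a median signal of 129 and a highest of 172. This compares with 14.9% of thresholded peaks and 18.7% of the 729 weakest of them. No control sample was analysed here, and the part of background in these entries was not tested.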

How the results depend on the processing

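Of 141 alternative values, 111 were counted as unmoved, 30 as moved and 0 as reversed. The limit was the spread between replicates for shares, distance and GC content, and 1.5 times for the number of peaks. The ratios of median signal lay between 0.710 and 0.873 for promoter peaks and between 0.930 and 0.972 for peaks inside genes. All of these ratios were counted as unmoved, although some moved by more than the SD between replicates. With the thresholded peaks above the median signal only, the number was 452, the median distance 3453 bp, the nearest gene was protein-coding in 57.7%, its nearest edge was the 5' end in 53.8% and 97.3% were overlapped by all 3 replicates. With a limit of 200 bp or 1000 bp in place of 500 bp, the median distance was 2135 or 4945 bp, which the limit itself sets in part, the protein-coding share 67.7 or 55.4% and the 5' share 57.8 or 46.0%, and with 1000 bp the median GC content was 31.7%. With starts of every biotype setting the limit, the protein-coding share was 64.2% and the 5' share 47.1%. In the list of replicate 2 the distance was 3797 bp, these shares 58.03 and 51.8%, the share with an ACGT core 16.8% and the GC content 33.7%, as it was in that of replicate 3. Leaving out each replicate in turn gave numbers from 756 to 928, fewer by construction, protein-coding shares from 58.4 to 59.4% and 5' shares from 50.3 to 51.1%. Overlap by all 3 replicates was 65.1% when at least 50% of the peak had to be covered, 62.7% for summits within 100 bp and 87.3% against all entries with a q-value of 0.05 or less. With 25 or 100 bp to each side of the summit, an ACGT core was in 8.39 or 29.2% and the GC content was 33.3 or 34.3%. Not counting transposable elements as genes, an alternative chosen after seeing the data, gave 1093 peaks. The share with the unfolded protein response element rests on 4 peaks. Where no value above shows it, the cause was not tested. No paired analysis was possible because there is a single group.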
